A study of Rattus norvegicus with 4 samples.

Results

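Genes of mitochondrial protein import and of the mitochondrial solute carrier family were compared in RTEC11 cells at 33 °C and at 39 °C. They were chosen by name, as genes with a probe set annotated to 1 symbol that begins with Tomm or Timm and a digit, or with Slc25a. The rule found 52 of the 10411 genes named on the array, measured by 59 probe sets. They are 8 outer-membrane Tomm genes, 13 Timm genes, 30 Slc25a carriers and Tomm34, which encodes a cytosolic co-chaperone and is described apart. A probe set shared by Timm23 and copies of it, and 2 probe sets listed under Slc25a51 for more than 1 gene entry, were left out by the rule.

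RTEC11 is an epithelial line from the trachea of transgenic rats. All 4 samples carry the large T antigen of simian virus 40 in a temperature-sensitive form, which drives division at 33 °C (permissive) and is inactivated at 39 °C (nonpermissive). Total RNA after 3 days at either temperature was hybridised to Affymetrix arrays, 2 per temperature. All samples are of 1 cell line, and heat and loss of the antigen came together, so they cannot be told apart. The labels do not say whether the arrays of a temperature came from separate cultures. The p-values therefore measure only the difference against array-to-array spread, which could be purely technical. For each gene, that spread and the printed SE were partly taken from other genes of like intensity.

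Most mitochondrial proteins are made in the cytosol and enter through the TOM complex of the outer membrane, which consists of receptors, a channel and small subunits. Proteins with a cleavable presequence then pass the inner membrane through the TIM23 complex. The carriers of the Slc25a family, which have no such presequence as a rule, are escorted across the intermembrane space by small Tim chaperones and inserted by the TIM22 complex. Once in the inner membrane, Slc25a carriers exchange nucleotides, phosphate, carboxylates, amino acids and cofactors between the cytosol and the matrix.

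Import genes were lower at 39 °C and the carriers were mixed. Of 7 outer-membrane genes tested 5 fell and none rose, and of 12 Timm genes 9 fell and none rose, with limma's adjusted p under 0.05 as the call. Of 23 carriers tested 8 fell and 4 rose. Over all 7016 genes tested, 26.1% were called lower and 23.1% higher. The outer-membrane share called lower was 71.4%, the Timm share 75% and the carrier share 34.8%, so the carriers' share lay near that of all genes. The median log2 change was -0.60 in the outer-membrane group, -0.78 in the Timm group and -0.13 in the carriers, beside -0.04 over all genes tested. The Timm group was uneven. All 6 small Tim chaperones of the intermembrane space fell (median -0.94), beside 2 of 4 tested TIM23 genes (-0.16) and 1 of 2 TIM22 genes (-0.41). The 9 members not tested lay under the limit for dim genes, a mean intensity of 81.1, and no tested member had a mean under that limit at either temperature.

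**Figure D1:**
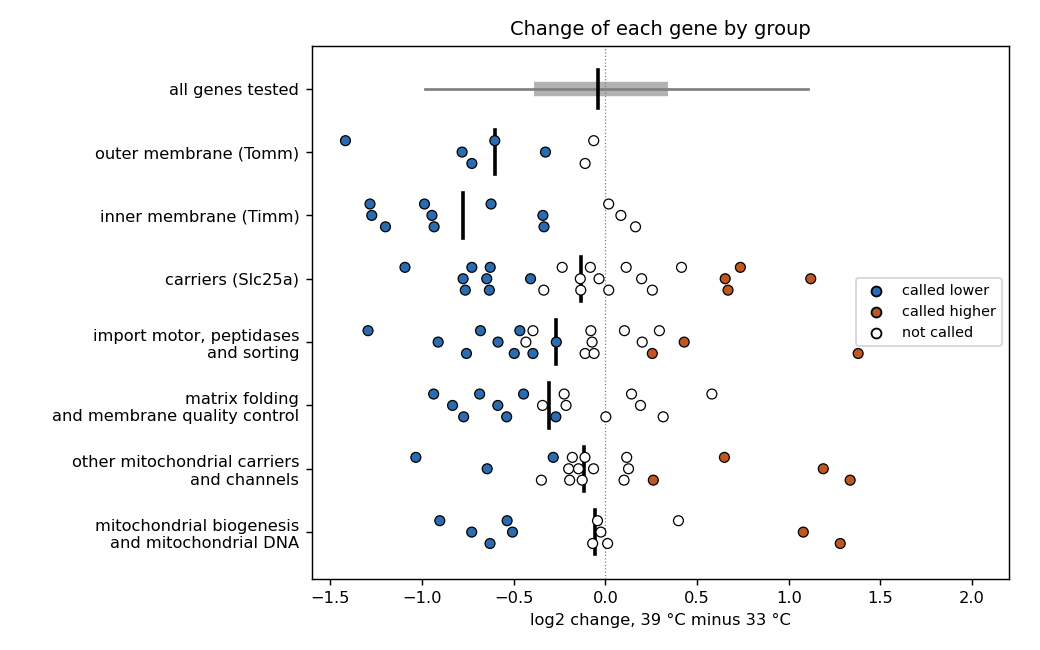
Log2 change from 33 °C to 39 °C (x axis) of each tested gene (points, filled where called) in 7 groups (y axis), with the median of each group as a black bar; for all genes tested the thin line spans the 5th to 95th percentile (-0.98 to 1.11) and the thick line the 25th to 75th. The medians of the outer-membrane (-0.60) and Timm (-0.78) groups lie below the 25th percentile of all genes (-0.39), while the carriers spread on both sides of 0. The group of other carriers and channels also holds carnitine palmitoyltransferases, which are enzymes.

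The start regions of 4 members that fell hold the letters CACGTG, the E-box bound by MYC and related factors. They are shown because 3 of them belong to the 6 small Tim chaperones, all of which fell. The sequences are from RefSeq on build GRCr8, read 5′ to 3′ on the gene's strand from 130 bases before the annotated start to 20 bases after it, with CACGTG in capitals. They are chr6:95358876-95359025 (minus strand) for Timm9, chr3:90315009-90315158 (plus strand) for Timm10, chrX:102015425-102015574 (minus strand) for Timm8a1 and chr5:165502954-165503103 (minus strand) for the carrier gene Slc25a33.
Timm9: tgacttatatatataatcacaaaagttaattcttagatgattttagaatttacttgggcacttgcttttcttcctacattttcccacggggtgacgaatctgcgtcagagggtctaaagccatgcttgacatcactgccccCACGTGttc
Timm10: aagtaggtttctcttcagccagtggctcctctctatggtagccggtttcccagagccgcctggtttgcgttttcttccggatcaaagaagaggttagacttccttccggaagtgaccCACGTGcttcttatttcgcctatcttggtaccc
Timm8a1: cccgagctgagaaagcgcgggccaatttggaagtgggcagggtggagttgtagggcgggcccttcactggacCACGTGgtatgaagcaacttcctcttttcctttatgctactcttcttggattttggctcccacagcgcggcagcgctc
Slc25a33: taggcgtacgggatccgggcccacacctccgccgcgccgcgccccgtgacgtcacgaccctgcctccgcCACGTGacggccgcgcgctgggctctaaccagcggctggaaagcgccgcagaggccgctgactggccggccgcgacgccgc

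The E-box began 61 bases before the start in Slc25a33, 58 in Timm8a1 and 13 in Timm10, and 11 bases after it in Timm9. Windows of 300 bases, 250 before and 50 after the start, were searched at the first listed start of each gene. Sites at other starts of a gene were not counted. The E-box was found in 4 of the 22 members that fell, in none of 14 not called and in none of the 3 that rose and had a window. Among all 27457 genes with a window 6.65% held it, and among the 5957 tested genes with a window 10.1%. The share was 12.8% in tested genes called lower, 8.80% in those called higher and 9.21% in those not called. Searched on both strands in the same way, the NRF1 site core (GCGC, any 2 bases, GCGC) was in 2 of the 22 that fell, 3 of the 14 not called and 15.3% of tested genes. CCGGAAGT, an ETS site, was in 4 of the 22 (Timm10, Timm10b, Tomm20 and Tomm70), 2 of the 14 and 9.60% of tested genes. Neither was in the 3 that rose. The E-box reads the same on both strands, and none of the motifs contains another. A match in a window is a description of its letters and not evidence of binding.

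Timm17a and Timm17b encode alternative forms of a core TIM23 subunit and gave different calls, so their start regions are shown on the same build and span, with CCAAT in either orientation in capitals. They are chr13:49294385-49294534 (minus strand) and chrX:17275321-17275470 (minus strand).
Timm17a: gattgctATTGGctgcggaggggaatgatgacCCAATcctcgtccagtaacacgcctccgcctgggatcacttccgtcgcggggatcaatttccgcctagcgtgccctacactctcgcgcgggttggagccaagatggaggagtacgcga
Timm17b: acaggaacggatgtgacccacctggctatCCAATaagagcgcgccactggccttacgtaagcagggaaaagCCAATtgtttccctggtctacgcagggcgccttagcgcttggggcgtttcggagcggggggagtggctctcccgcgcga
Both windows hold 2 CCAAT boxes, and neither holds the E-box, the NRF1 core or the ETS letters. CCAAT was in 10 of the 22 members that fell, 8 of the 14 not called, 1 of the 3 that rose and 38.7% of the windows of tested genes. Its share was 40.5% in tested genes called lower, 38.9% in those called higher and 37.6% in those not called.

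In the outer membrane the largest fall was that of Tomm40, which encodes the channel of the TOM complex. Its normalised intensity was 1999.6 and 1893 at 33 °C and 600.3 and 859 at 39 °C. Both arrays at 39 °C lay well below both at 33 °C, although they differed between themselves more than those at 33 °C did. The change was 2.67-fold lower (log2 change -1.42 ± 0.15 SE, adjusted p = 1.64e-05), the 95th largest fall of 7016 genes.

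The receptors Tomm20 and Tomm70, which recognise presequences and internal targeting signals, fell as well. Tomm20 was at 5235 and 6146 at 33 °C and at 2780.3 and 3901 at 39 °C, 1.72-fold lower (adjusted p = 7.70e-04). Its second probe set gave a log2 change of -0.63 against -0.78. Tomm70 was at 957 and 833 at 33 °C and at 531 and 534 at 39 °C, 1.66-fold lower (adjusted p = 4.40e-04). The groups did not overlap in either gene, and 40.0% of all genes tested were separate downward in this way.

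Tomm22, the central receptor that joins the others to the channel, fell less. It was at 2682 and 2741 at 33 °C and at 2022 and 2304 at 39 °C, a log2 change of -0.33 ± 0.10 (SE, adjusted p = 0.0158). This call was lost without nonpermissive replicate 1 (-0.24, adjusted p = 0.137) and without the intensity trend in the fit (adjusted p = 0.0689).

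The small subunits that stabilise the channel did not behave alike. Tomm5 was at 2347 and 2282 at 33 °C and at 1503 and 1533 at 39 °C, a fall of 1.52-fold (adjusted p = 2.70e-04) with narrow spread in both groups. Tomm7 was at 3434 and 3374 at 33 °C and at 3371 and 3146 at 39 °C, and its log2 change of -0.06 was not called (adjusted p = 0.569). Tomm6 was at 3134 and 2557 at 33 °C and at 2509 and 2738 at 39 °C. Its groups overlapped, and its log2 change of -0.11 was not called (adjusted p = 0.429). Both were called lower when each array was centred on its own median (-0.32 for Tomm6, -0.30 for Tomm7) or scaled to spike-in controls (-0.53 and -0.52).

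The distance between Tomm40 and Tomm7, the most and least changed of the 7 tested outer-membrane genes, was set out within each array. A difference between them follows from their place at the ends of that group. The log2 ratio of Tomm40 to Tomm7, relative to its mean at 33 °C, was 0.03 and -0.03 at 33 °C and -1.66 and -1.05 at 39 °C. The ratio was lower on both arrays at 39 °C, by 1.35 on average. With 2 arrays against 2 an exact two-sided permutation test gave p = 0.333, the smallest it can give.

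Tomm40l, a paralog of Tomm40, lay under the limit for dim genes, at 73.7 and 56.5 at 33 °C and 75.4 and 120.6 at 39 °C. Its second probe set was dimmer still, between 2.1 and 29.0. Tomm34, the cytosolic co-chaperone that binds Hsp70 and Hsp90, was at 675 and 596 at 33 °C and 616 and 439 at 39 °C. Its log2 change of -0.28 was not called (adjusted p = 0.171), and it depended on the nonpermissive arrays, at -0.04 (adjusted p = 0.861) without replicate 2 and -0.53 with a call without replicate 1. Without a permissive array it was -0.19 or -0.36 with no call, and with spike-in scaling it was called (-0.58).

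**Figure D2:**
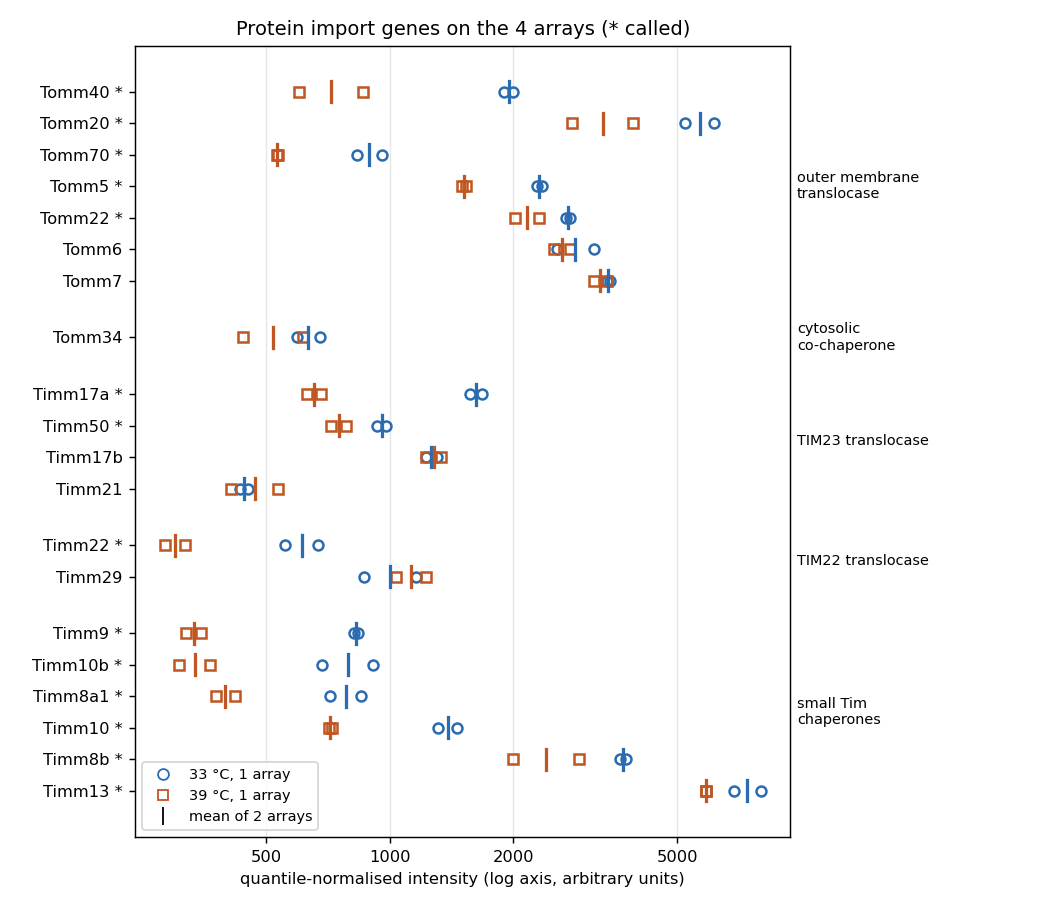
Quantile-normalised intensity (x axis, log scale, arbitrary units) of the tested import genes (y axis, by role) on each of 2 arrays at 33 °C (circles) and 2 at 39 °C (squares); bars mark the mean of 2 arrays and asterisks mark called genes. The pairs of squares lie to the left of the pairs of circles for Tomm40, Tomm20, Timm17a, Timm22 and all 6 small Tim genes, and overlap the circles for Tomm6, Timm17b, Timm21 and Timm29; levels of different genes are not comparable.

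Among TIM23 subunits, Timm17a fell and its paralog Timm17b was not called. Timm17a was at 1675 and 1565 at 33 °C and at 630.2 and 682 at 39 °C. This was 2.43-fold lower (log2 change -1.28 ± 0.11 SE, adjusted p = 3.66e-06), with a gap between the groups far wider than the spread in either. Timm17b was at 1300.4 and 1227 at 33 °C and at 1334 and 1227 at 39 °C, a log2 change of 0.02 ± 0.10 (SE, adjusted p = 0.90). Its sign changed with the scaling, to -0.13 with median centring (not called) and to -0.34 with spike-in scaling (called lower). The log2 ratio of Timm17a to Timm17b, relative to its mean at 33 °C, was 0.01 and -0.01 at 33 °C and -1.42 and -1.19 at 39 °C. The ratio does not depend on a shift of whole arrays, and its fall of 1.30 was many times its SD of 0.01 at 33 °C and 0.16 at 39 °C (n = 2 each). The exact two-sided permutation p was again 0.333, the smallest possible here.

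Timm50, the TIM23 receptor for presequences, was at 980.4 and 931 at 33 °C and at 719.8 and 784 at 39 °C, a log2 change of -0.34 ± 0.11 (SE, adjusted p = 0.0249). The call was lost without permissive replicate 1 (-0.30), without nonpermissive replicate 1 (-0.28) and without the intensity trend. Timm21, which links TIM23 to the TOM complex, was at 433 and 451 at 33 °C and at 536 and 411 at 39 °C, with overlapping groups and no call (log2 change 0.08, adjusted p = 0.660). Timm44, which tethers the matrix Hsp70 motor to the channel, was dim, between 23.6 and 62.6 on the 4 arrays.

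In the TIM22 complex, which inserts carriers, the core subunit Timm22 fell. It was at 556 and 669 at 33 °C and at 317 and 284 at 39 °C, 1.98-fold lower (adjusted p = 1.81e-04). A second Timm22 probe set, at 131 and 128 at 33 °C and 97.6 and 118 at 39 °C, gave a smaller log2 change of -0.24 against -0.99. Timm29, another subunit of the complex, was at 1161 and 866 at 33 °C and at 1037 and 1222 at 39 °C. The groups overlapped (log2 change 0.16, adjusted p = 0.367), and the value depended on the permissive arrays, at 0.37 with a call without replicate 1 and -0.05 without replicate 2.

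The small Tim chaperones were the role group in which every tested member fell, 6 of 6, beside 26.1% of all genes tested. Their median log2 change was -0.94. The Timm9 and Timm10 proteins form a hexamer that carries Slc25a proteins to TIM22. Timm9 was at 818 and 839 at 33 °C and at 319 and 348 at 39 °C, 2.42-fold lower (log2 change -1.27 ± 0.12 SE, adjusted p = 1.04e-05). Timm10 was at 1314 and 1460.2 at 33 °C and at 723 and 712 at 39 °C, 1.91-fold lower (adjusted p = 3.66e-05). The RNA of both partners thus fell with no overlap between temperatures, and protein was not measured. Such a downward separation of the groups was seen in 40.0% of all genes tested.

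Timm10b, a related small Tim of the TIM22 complex, was at 912 and 686 at 33 °C and at 366 and 308 at 39 °C, 2.30-fold lower (adjusted p = 8.48e-05). The Timm8 and Timm13 proteins form a second hexamer. Timm8a1 was at 717 and 852 at 33 °C and at 377 and 420.0 at 39 °C, 1.93-fold lower (adjusted p = 1.45e-04), and its second probe set gave a log2 change of -1.16 against -0.95. Timm8b was at 3637 and 3761 at 33 °C and at 2883 and 1989.6 at 39 °C, 1.54-fold lower (adjusted p = 0.00361), with wide spread at 39 °C. Its log2 change of -0.62 was -0.37 without nonpermissive replicate 2 (adjusted p = 0.0276) and -0.91 without nonpermissive replicate 1 (adjusted p = 2.73e-04).

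Timm13 fell least of these 6. It was at 7986 and 6880.0 at 33 °C and at 5866 and 5882 at 39 °C, a log2 change of -0.33 ± 0.09 (SE, adjusted p = 0.00951). Its call was lost without permissive replicate 1 (-0.22, adjusted p = 0.0837) and without the intensity trend (adjusted p = 0.0695).

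Both arrays at 39 °C lay below both at 33 °C in 6 of 7 outer-membrane genes and 9 of 12 Timm genes, and neither group had a gene with the reverse order. Over all genes tested the groups were separate in this way in 40.0% downward and 35% upward. Among the 23 carriers 12 were separate downward and 5 upward.

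Of 6 tested carriers of adenine nucleotides, phosphate and related substrates 3 fell and 1 rose. Over all genes tested 26.1% fell and 23.1% rose, and 6 genes are too few to set apart from these shares. Slc25a4 and Slc25a5, which encode ADP/ATP translocases that bring ADP into the matrix and export ATP, both fell. Slc25a4 was at 9100.1 and 9256 at 33 °C and at 5492 and 5217 at 39 °C, 1.71-fold lower (log2 change -0.78 ± 0.08 SE, adjusted p = 1.48e-05). Slc25a5 was at 13378 and 14110 at 33 °C and at 8560 and 8022 at 39 °C, 1.66-fold lower (log2 change -0.73 ± 0.08 SE, adjusted p = 2.27e-05). The log2 changes of these 2 genes differed by -0.05. The translocases are alike in sequence, so their probe sets may share signal.

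Slc25a3, the carrier of phosphate for ATP synthesis, did not follow them. It was at 11461 and 12304 at 33 °C and at 11328 and 11111 at 39 °C, with a log2 change of -0.08 ± 0.08 (SE, adjusted p = 0.406). It was called lower with median centring (-0.29) and with spike-in scaling (-0.50). The log2 ratio of Slc25a4 to Slc25a3 was lower by 0.67 and 0.72 on the nonpermissive arrays than its mean at 33 °C, and that of Slc25a5 to Slc25a3 by 0.61 and 0.68. Each comparison had an exact two-sided permutation p of 0.333, the smallest possible.

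Other nucleotide-related carriers moved in different directions. Slc25a25, a calcium-regulated carrier of ATP-Mg and phosphate, was at 211 and 368 at 33 °C and at 409.5 and 491 at 39 °C, 1.57-fold higher (adjusted p = 0.0269). This rise rested on single arrays, with no call without permissive replicate 1 (log2 change 0.28 against 0.65, and 1.02 without permissive replicate 2) or without nonpermissive replicate 2 (0.53), nor with spike-in scaling (0.40), without the dim filter or without the intensity trend. Slc25a42, which carries coenzyme A, was at 231 and 282 at 33 °C and at 180.0 and 141 at 39 °C, 1.55-fold lower (adjusted p = 0.0191). It was no longer called when permissive replicate 2 (-0.50 on the log2 scale) or nonpermissive replicate 2 (-0.47) was left out, on the deposited scale (-0.50) or without the dim filter. The peroxisomal carrier Slc25a17 was not called (log2 change 0.11, -0.19 with spike-in scaling).

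**Figure D3:**
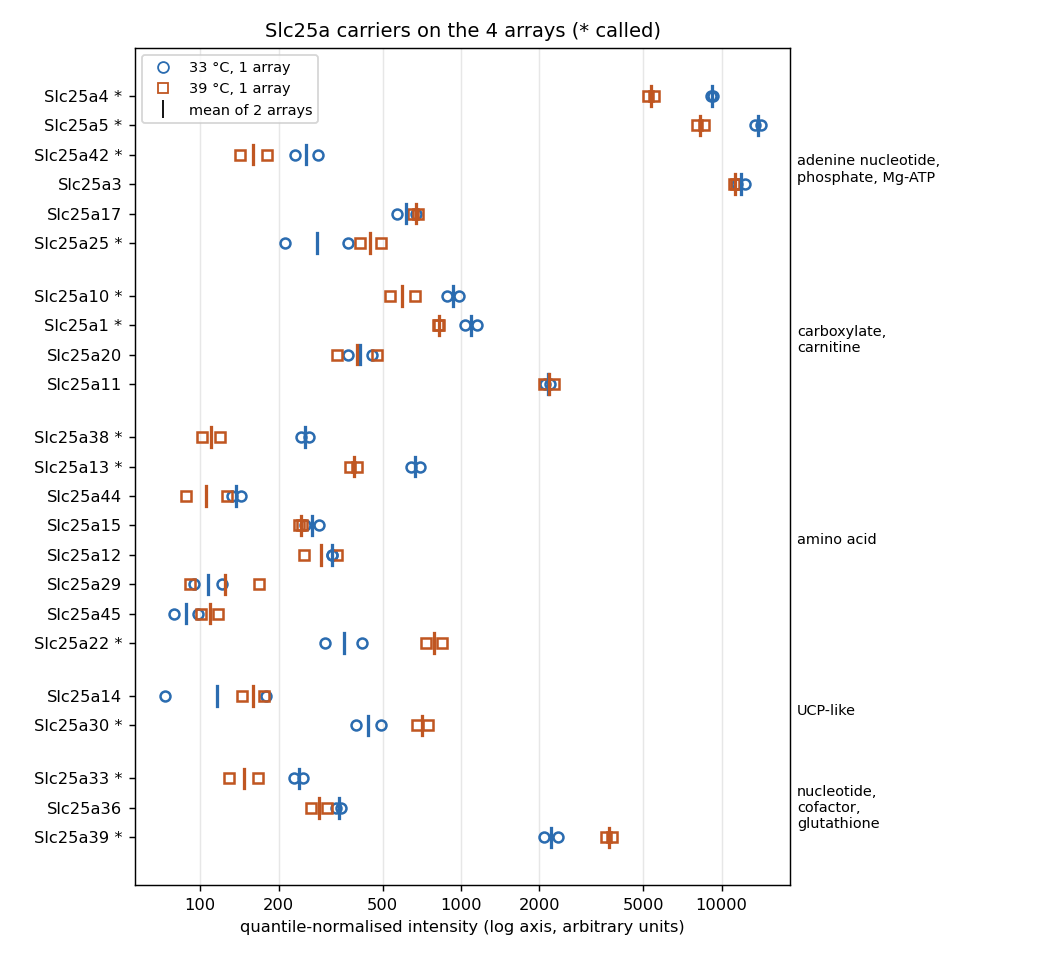
Quantile-normalised intensity (x axis, log scale, arbitrary units) of the 23 tested Slc25a carriers (y axis, by substrate) on each of 2 arrays at 33 °C (circles) and 2 at 39 °C (squares); bars mark the mean of 2 arrays and asterisks mark called genes. Slc25a4, Slc25a5, Slc25a13 and Slc25a38 have squares to the left of circles, Slc25a22, Slc25a30 and Slc25a39 to the right, and Slc25a11 shows no separation; levels of different genes are not comparable.

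Of 4 tested carriers of carboxylates and carnitine 2 fell and none rose, beside 26.1% lower and 23.1% higher over all genes tested. Slc25a10, which exchanges malate and succinate for phosphate, was at 985 and 884 at 33 °C and at 665 and 535 at 39 °C, 1.55-fold lower (adjusted p = 0.00210). Slc25a1, which exports citrate for lipid synthesis, was at 1150.3 and 1039.9 at 33 °C and at 825 and 816 at 39 °C, 1.33-fold lower (adjusted p = 0.00909), with no call without permissive replicate 1 (log2 change -0.34 against -0.41). The oxoglutarate carrier Slc25a11, a part of the malate-aspartate shuttle, was at 2202 and 2106 at 33 °C and at 2282 and 2084 at 39 °C. Its groups overlapped (log2 change 0.02, adjusted p = 0.889), and the sign turned on the deposited scale (-0.03), with median centring (-0.18) and with spike-in scaling (-0.40, called). Slc25a20, the carnitine-acylcarnitine carrier of fatty acid oxidation, was at 457 and 369 at 33 °C and 478 and 335 at 39 °C, with overlapping groups and no call (log2 change -0.03, 0.06 on the deposited scale).

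The aspartate-glutamate carriers Slc25a12 and Slc25a13, which also serve the malate-aspartate shuttle, gave different calls. Slc25a13 was at 696 and 643 at 33 °C and at 375 and 400.3 at 39 °C, 1.70-fold lower (log2 change -0.76 ± 0.13 SE, adjusted p = 4.36e-04). Slc25a12 was at 320.2 and 319.9 at 33 °C and at 336 and 251 at 39 °C, with a log2 change of -0.13 ± 0.17 (SE, adjusted p = 0.532) that was 0.06 without nonpermissive replicate 2. The log2 ratio of Slc25a13 to Slc25a12 was lower by 0.88 and 0.38 on the nonpermissive arrays than its mean at 33 °C (exact two-sided permutation p = 0.333, the smallest possible).

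Among the other carriers of amino acids 1 fell and 1 rose. Slc25a38, the glycine carrier needed for heme synthesis, fell furthest of all carriers. It was at 260.2 and 244 at 33 °C and at 118.5 and 101 at 39 °C, 2.13-fold lower (log2 change -1.09 ± 0.19 SE, adjusted p = 7.37e-04). Slc25a22, a glutamate carrier, rose furthest. It was at 300.8 and 418.5 at 33 °C and at 849 and 735 at 39 °C, 2.17-fold higher (log2 change 1.12 ± 0.16 SE, adjusted p = 1.62e-04), with no overlap. The ornithine carrier Slc25a15 was at 252 and 285 at 33 °C and 245 and 240.0 at 39 °C and was not called (log2 change -0.14, adjusted p = 0.503). Slc25a44 (-0.34), Slc25a29 (0.20) and Slc25a45 (0.26) were not called either, and Slc25a29 was at -0.03 with spike-in scaling.

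Slc25a39, which carries glutathione into mitochondria, rose. It was at 2349 and 2086 at 33 °C and at 3781 and 3616 at 39 °C, 1.67-fold higher (log2 change 0.74 ± 0.09 SE, adjusted p = 7.50e-05). Slc25a30, a relative of the uncoupling proteins, was at 395 and 493 at 33 °C and at 746 and 678 at 39 °C, 1.59-fold higher (adjusted p = 0.00201). The related Slc25a14 was at 73.2 and 179 at 33 °C and at 145 and 176 at 39 °C and was not called (log2 change 0.42). It was called without permissive replicate 2 (0.98) and was at -0.15 without permissive replicate 1.

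Slc25a33 and Slc25a36 carry pyrimidine nucleotides. Slc25a33 was at 228.5 and 249 at 33 °C and at 129 and 166 at 39 °C, 1.57-fold lower (adjusted p = 0.0164). It was no longer called when permissive replicate 2 (-0.59 on the log2 scale) or nonpermissive replicate 1 (-0.49) was left out, or without the dim filter. Slc25a36 was at 346 and 333 at 33 °C and 266 and 307 at 39 °C and was not called (-0.24, adjusted p = 0.215), although it was with spike-in scaling (-0.48). Their log2 ratio differed between the temperatures by -0.41 (exact two-sided permutation p = 0.333, the smallest possible).

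The carriers Slc25a18, Slc25a21, Slc25a23, Slc25a27, Slc25a34, Slc25a35 and Slc25a48 were dim. Slc25a35 was the dim carrier with the widest difference, at 8.7 and 2.9 at 33 °C and 31.4 and 41.7 at 39 °C, all under the limit. The 2 probe sets of Slc25a48 had log2 changes of opposite sign, 0.34 and -1.15.

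How the arrays were scaled moved the level of all changes. Quantile normalization put the median over all genes at -0.04, the deposited scale at 0.02, centring each array on its median at -0.13, and scaling to 27 spike-in probe sets at -0.34. In that order the outer-membrane median was -0.60, -0.64, -0.79 and -1.0, the Timm median -0.78, -0.79, -0.93 and -1.15, and the carrier median -0.13, -0.03, -0.18 and -0.40. The import groups lay below the median of all genes by over 0.5 under each of these scalings, and the carriers stayed within 0.1 of it. The last 3 scalings differ by 1 shift per array, so the distance of a gene from the others is the same in them. The spike-in probe sets were picked by their names, and whether these controls had been added to the RNA was not checked. On the deposited scale 23.7% of genes were called lower and 26.0% higher, with median centring 33.1% and 19.2%, and with spike-in scaling 47.4% and 12%. Against these shares 5, 7 and 7 of 7 outer-membrane genes, 9, 9 and 10 of 12 Timm genes and 7, 9 and 11 of 23 carriers were called lower. Called higher were no import genes under any of the 3 and 4, 4 and 3 carriers.

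**Figure D4:**
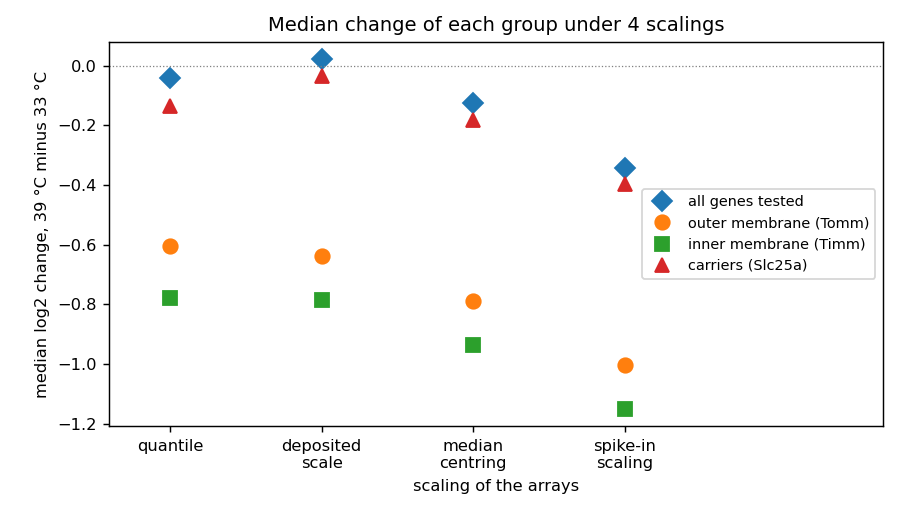
Median log2 change from 33 °C to 39 °C (y axis) of all genes tested, the outer-membrane genes, the Timm genes and the carriers under 4 scalings of the arrays (x axis). The outer-membrane and Timm medians lie below that of all genes under each scaling, and the carrier median stays near it.

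Other genes of import and sorting were read from lists made for this comparison. Over all genes tested 26.1% were called lower and 23.1% higher. Of 21 tested genes of the import motor, processing peptidases and membrane sorting 9 fell (42.9%) and 3 rose (14.3%). Their median log2 change was -0.27. The largest falls were those of Hspa9, the matrix Hsp70 that pulls proteins in (-1.29 ± 0.13 SE, adjusted p = 1.02e-05), of Dnajc15, a J protein of the inner membrane (-0.91), and of Romo1, a small inner-membrane protein (-0.76). Hspa9 was at 1848 and 1721 at 33 °C and at 637 and 808 at 39 °C. Its nucleotide exchange factor Grpel1 had a log2 change of -0.08 and was not called. The largest rise was that of Gfer, the sulfhydryl oxidase that works with the disulfide relay of the intermembrane space. Gfer was at 628 and 603 at 33 °C and at 1554 and 1700.5 at 39 °C (log2 change 1.38 ± 0.11 SE, adjusted p = 2.15e-06). Mtx2, a metaxin of the outer membrane, rose by 0.43 on the log2 scale, while Mtx1 had a log2 change of -0.50 and was called lower, and the cytosolic J protein Dnaja1 rose by 0.26.

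Of 16 tested genes of matrix folding and membrane quality control 8 fell and none rose (median -0.31). They were led by Stoml2, a stomatin-like protein of the inner membrane (-0.94), the prohibitin Phb2 (-0.83) and Immt, the mitofilin of the cristae junctions (-0.77). Of 18 tested carriers, channels and carnitine palmitoyltransferases outside the Slc25a names 3 fell (16.7%) and 4 rose (22.2%), with a median of -0.12. Sfxn1, a serine carrier, was at -1.03, Sfxn4 at -0.64 and the pyruvate carrier subunit Mpc2 at -0.28. The largest rises were those of Cpt1c (1.33) and Cpt1a (1.19), carnitine palmitoyltransferases, which are enzymes and not carriers or channels. The uncoupling protein Ucp2 rose by 0.65. The voltage-dependent anion channels Vdac1, Vdac2 and Vdac3 were not called (0.13, -0.20 and -0.06).

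Of 12 tested regulators of mitochondrial biogenesis and mitochondrial DNA 5 fell (41.7%) and 2 rose (16.7%), with a median of -0.06. The mitochondrial polymerase subunit Polg2 was at -0.90, the DNA-binding protein Ssbp1 at -0.73 and the RNA-binding protein Slirp at -0.63. Myc was at 1106 and 1089 at 33 °C and at 714 and 792 at 39 °C (-0.54 ± 0.11 SE, adjusted p = 0.00195). Nfe2l2, the regulator of antioxidant genes, rose by 1.28 and the nuclear receptor Esrra by 1.08. Tfam, which packages mitochondrial DNA, was at 788 and 825 at 33 °C and 793 and 834 at 39 °C, with a log2 change of 0.01.

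The labelled cell type was checked against markers. Of 12 epithelial markers 10 lay above the dim limit, and of these 2 fell (Krt7 and Krt18), 5 rose (Dsp, Elf3, Epcam, Krt8 and Krt19) and 3 were not called. Markers of basal cells were mixed, with Krt5 and Tp63 dim, Krt15 near the limit (53.8 and 105 at 33 °C, 133 and 120.3 at 39 °C) and Krt14 far above it, between 11540 and 12488 on the 4 arrays. The summed intensity of the 12 was 72388 to 76046 at 33 °C and 84302 to 85788 at 39 °C. Of 8 fibroblast markers 1 lay above the limit, Col3a1, which rose, and the list summed to 239 to 264 and 351 to 398. Of 3 endothelial and 6 leukocyte markers none did, and of 4 muscle markers 1 did, Des, which rose. Myh11, another muscle marker, was too dim on average to be tested but went from 16.2 and 25.1 at 33 °C to 120.5 and 109 at 39 °C, and the muscle list summed to 178 to 236 and 353 to 378. The part of these markers in the results was not tested.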

How the data were processed

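Biotin-labelled cRNA was made from 5 µg of DNase-treated RNA, per the labels' protocols. The deposited table holds linear intensities of 15923 probe sets on each of 4 arrays. What software summarised the probes is not given in the sources here. From the values, the authors' intensities had a trimmed mean of 500.1 to 500.2 on each array (2% left out at each end).

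Groups came from the titles. The 57 control probe sets were left out, log2(intensity + 16) was quantile normalized, and normalised intensities are printed back-transformed without the 16. A fold change is on the log2(intensity + 16) scale. Names came from GEO's platform annotation, and all 52 member symbols matched RefSeq (GRCr8) by Entrez identifier. Each gene was represented by its brightest probe set (_x_at only where no other existed), and genes whose mean lay below the 40th percentile were not tested. Of 10411 genes 7016 were tested with limma 3.58.1 in R 4.3.3 (lmFit, eBayes with an intensity trend, two-sided). Benjamini-Hochberg adjustment was used with a threshold of 0.05. eBayes combined each gene's own variance (2 degrees of freedom) with one typical of genes of like intensity (median 9.231 degrees of freedom). The printed SEs and limma p-values rest on this combined variance. The fit was checked on simulated data in which few genes changed, so the check does not cover a change as wide as this one. Figures used matplotlib 3.10.9. Single ratios were compared with exact permutation tests, 7 in all, each with the smallest possible p, so adjusted values are the same.

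Every Tomm and Timm gene was named, with the 6 largest called rises and falls of the carriers, a fixed set of carriers, and the 3 largest called rises and falls of each of 4 further lists. Grpel1, Mtx1, Myc, Tfam and the Vdac genes fall outside this rule and were named after their values were seen. The members and lists were chosen with earlier results of these data known. Motif searches and the printed promoters were chosen after seeing the values. Samples with the same replicate number did not deviate together (correlation -0.0064), so the numbers were not taken as pairs.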

Additional observations from a re-analysis of the deposited data

How the results depend on the processing

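Of the 26 members called, 19 kept direction and call under all 15 alternatives in which they were tested, 16 lower and 3 higher. The calls lost under some were those of Slc25a25, Slc25a42, Slc25a33, Slc25a1, Timm50, Timm13 and Tomm22, as given with each gene, and the cause was not tested. With the replicate block 3706 genes were called in place of 3448, with the same calls for all tested members. With a single array left, that array was assumed to vary like the other group's.

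The carrier median of -0.13 was -0.034 on the deposited scale, -0.18 with median centring, -0.40 with spike-in scaling and -0.082 with the dim limit at the 60th percentile, where 5 carriers in place of 8 were called lower among the fewer genes tested. The outer-membrane median of -0.60 was -0.79 with median centring, -1.0 with spike-in scaling and -0.46 without the dim filter. The Timm median of -0.78 was -0.93, -1.15 and -0.62 under the same settings, and -0.62 when the probe sets of a gene were averaged. Leaving out 1 array gave carrier medians of -0.15 to -0.066 and 0 to 1 Timm gene called higher.

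Signs turned only in members that were not called. Spike-in scaling gave -0.19 for Slc25a17, -0.033 for Slc25a29, -0.40 for Slc25a11, -0.19 for Timm29, -0.34 for Timm17b and -0.19 for Timm21, of which Slc25a11 and Timm17b were called. Median centring gave -0.18 for Slc25a11 and -0.13 for Timm17b, and the deposited scale -0.034 for Slc25a11 and 0.061 for Slc25a20. With 1 array left out, the log2 change ran from -0.0022 to 0.23 for Slc25a17, -0.34 to 0.065 for Slc25a12, -0.20 to 0.58 for Slc25a29, -0.0495 to 0.083 for Slc25a11 and -0.28 to 0.21 for Slc25a20. It ran from -0.15 to 0.98 for Slc25a14, -0.048 to 0.37 for Timm29, -0.042 to 0.076 for Timm17b, -0.10 to 0.27 for Timm21 and -0.25 to 0.038 for Tomm6. With 2 arrays per temperature, the number of arrays limits the precision of each of these values.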
